A study of Arabidopsis thaliana with 16 samples.

Results

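Among 22746 probe sets measured in heated leaves of Arabidopsis thaliana, 80 stood at least 2-fold higher at each of the first 2 stages of a warming curve, and these 80 are described here. They were chosen on group means of the log2 signals: the photosynthetic optimum minus the baseline was at least 1, and 20% inhibition minus the optimum was at least 1. In all 90 probe sets met both conditions, and the rule sets 10 of them aside by name, in genes such as Hop3 and Fes1A. The array annotation assigned 40 of the 80 to 1 gene each, 1 to several genes and 39 to none, so genes are named for 40 members only.

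The leaves came from the line Columbia, grown at 22 °C with a 10 h photoperiod, 350 µmol m-2 s-1 of light and 60% humidity. All 4 groups share this genotype and tissue, the first fully expanded leaf, and differ in how far a warming curve had been run. The temperature was raised by 2 °C every 10 min between 22 and 42 °C, with 20 to 30 min of stabilisation before sampling, and a curve took 3 to 4 h. Leaves were taken before warming (baseline), where photosynthesis peaked (optimum), and where it had dropped by 20% and by 30% (called 20% and 30% inhibition), with 4 arrays per state (n = 4 for every group value). The leaf temperature of a state is not given in the labels, so its effect, that of the hours of warming and that of the hour of the day cannot be told apart. Nothing in the labels says more of the replicates than that plants were picked at random, and p-values here rest on the variation among the leaf samples, which may be technical. The leaf was checked by its photosynthetic genes: 3 of 10 mesophyll markers had a named probe set, and the probe set of the Rubisco activase gene RCA averaged 14.6 at baseline (log2 signal).

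Heated plant cells face unfolding proteins. Heat shock factors then switch on genes for chaperones, which hold or refold damaged proteins: HSP70 works in cycles driven by J-domain partners, HSP90 with a set of co-chaperones, and small heat shock proteins bind unfolded chains. Proteins that cannot be refolded are marked with ubiquitin by ligases, among them RING finger and SKP1-containing ones, and degraded, or are taken up by autophagy.

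The chosen genes covered a wide span of sizes and levels. Optimum minus baseline ran from 1.00 to 5.61 with a median of 1.63, and 20% inhibition minus optimum from 1.03 to 7.87 with a median of 2.02, all on the log2 scale. The second step was the larger in 55 of the 80 members and the first in 25. At the optimum a member had covered a median of 44.9% of its whole log2 difference between 20% inhibition and baseline (range 17.8% to 71.0%). These values chose the members and are given without a test. The 4 optimum arrays lay above the 4 baseline arrays in all 80 members, as they did in 9.25% of all probe sets, and the 20% inhibition arrays above the optimum arrays in 78 (16.8% of all probe sets).

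**Figure D1:**
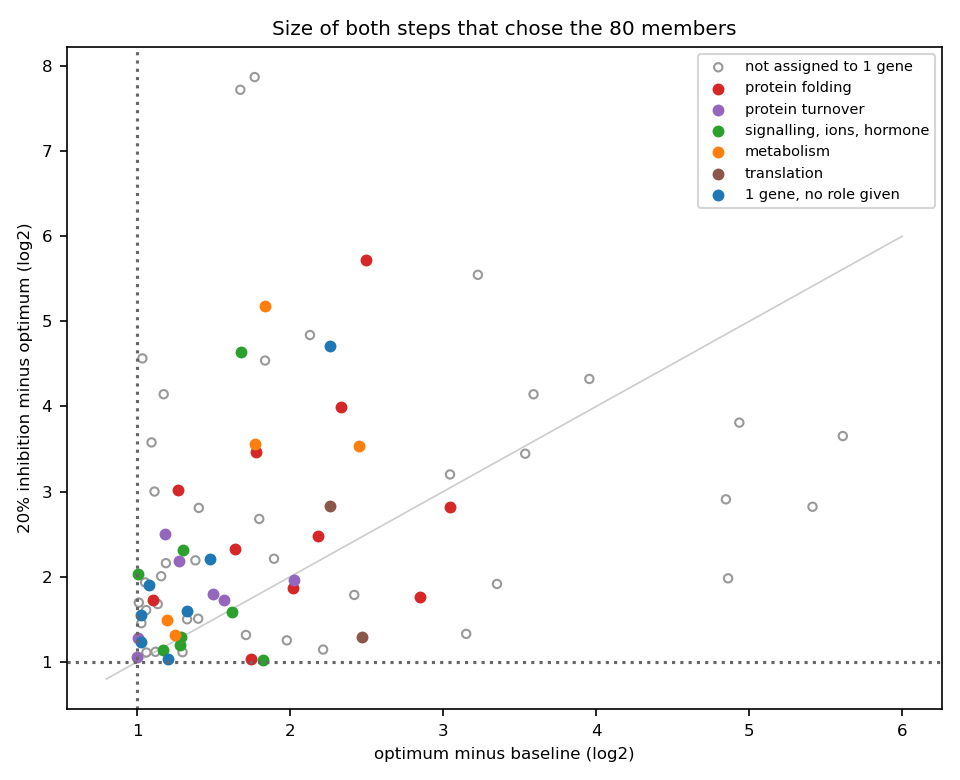
Each point is 1 of the 80 members; the horizontal axis gives optimum minus baseline and the vertical axis 20% inhibition minus optimum, both as log2 differences of group means. Dotted lines mark the limit of 1 on both axes, the grey diagonal marks equal steps, and 55 members lie above that diagonal.

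The limit of 1 cuts through a continuous range. Just inside it, by the smaller of both steps, were AT3G47160 (1.00), AT1G32090 (1.01), ATG8D (1.01), an unnamed probe set (1.01) and AT4G16146 (1.02). Just outside were an unnamed probe set (0.99), AT4G30490 (0.98), AT1G16850 (0.98), AT4G36010 (0.97) and another unnamed probe set (0.97). Within 0.1 of the limit there were 16 members inside and 22 probe sets outside. When any 1 of the 12 arrays behind the rule was left out, 16 of the 80 members dropped out at least once, 9 of them among the 40 named.

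Of the 40 named members, 11 encode proteins of folding, 7 of protein turnover, 8 of signalling, ion or hormone pathways, 5 of metabolism and 2 of translation, and 7 are given no role here. These groups were assigned gene by gene after the members were known, and most of these genes carry only a locus number as name. The largest difference among the named genes was that of AT1G71000, a J-domain protein of the DnaJ type. Its 4 arrays read 3.91, 3.95, 3.86 and 4.10 at baseline, 5.98, 6.46, 7.07 and 6.30 at the optimum, 12.24, 12.19, 12.03 and 12.26 at 20% inhibition, and 11.00, 11.08, 11.29 and 10.90 at 30% inhibition (log2 signal). No array of one state overlapped with those of another, and the baseline lay near the lowest signals of the arrays (3.25), so the 298-fold value of 20% inhibition over baseline is approximate. As leaves were measured whole, more cells with a transcript and more transcript per cell cannot be told apart here or below.

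AT1G56300, another J-domain protein, had its larger step first. It read 8.12, 7.68, 7.64 and 7.76 at baseline, 10.41, 10.72, 10.89 and 10.58 at the optimum, 12.38, 12.44, 12.35 and 12.46 at 20% inhibition, and 12.57, 12.54, 12.50 and 12.57 at 30% inhibition. It had covered 61.8% of its difference at the optimum, against 30.4% in AT1G71000. In AT1G56300 every array of 30% inhibition lay above every array of 20% inhibition, as in 6.23% of all probe sets. The difference of 0.14 ± 0.10 (SE) did not pass (limma, adjusted p = 0.50).

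Partners of HSP70 and HSP90 were among the members. AT1G66080 encodes a Hikeshi-like protein; in human cells Hikeshi carries HSP70 into the nucleus during heat. It read between 4.94 and 5.07 at baseline, between 7.87 and 8.32 at the optimum, between 10.55 and 11.14 at 20% inhibition and between 9.97 and 10.13 at 30% inhibition. Its first step, 3.04, was the highest among the 40 named members. SGT1A, an HSP90 partner that also acts in immune receptor assembly, read between 8.02 and 8.31 at baseline, between 9.97 and 10.28 at the optimum, between 11.85 and 12.10 at 20% inhibition and between 11.61 and 11.96 at 30% inhibition, where both inhibited states overlapped. AT3G12050, which carries the domain of the HSP90 ATPase activator Aha1, averaged 8.77 ± 0.23, 10.41 ± 0.10, 12.73 ± 0.20 and 12.46 ± 0.12 (SD) in the same order of states. AT1G30070, with the SGS domain named after SGT1, averaged 6.78 ± 0.19 at baseline, 9.11 ± 0.31 at the optimum, 13.11 ± 0.17 at 20% inhibition and 12.59 ± 0.10 at 30% inhibition (SD).

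Chaperones proper were represented by 3 named members. The cytosolic HSP70 gene AT3G09440 read between 10.78 and 11.08 at baseline, between 12.47 and 12.85 at the optimum, between 13.54 and 13.86 at 20% inhibition and between 13.25 and 13.45 at 30% inhibition. Another HSP70 gene, Hsp70-2 (AT5G02490), read between 7.70 and 8.13 at baseline, between 8.77 and 9.21 at the optimum, between 10.39 and 10.96 at 20% inhibition and between 10.20 and 10.71 at 30% inhibition. The small heat shock protein of the HSP20 type AT2G19310 averaged 8.45 ± 0.20, 10.63 ± 0.27, 13.11 ± 0.16 and 12.92 ± 0.10 (SD). None of these 3 overlapped between baseline, optimum and 20% inhibition. BOB1, a NudC-domain protein needed for development and for survival of heat, was 19.6-fold higher at 20% inhibition than at baseline, and the cyclophilin AT2G21130, a peptidyl-prolyl isomerase, 37.8-fold. The HSP70 genes of the cytosol are close in sequence, and how far probes of one read transcripts of another was not tested.

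In the protein turnover group first steps ran from 1.00 to 2.03 and second steps from 1.06 to 2.50. AT1G55530, a RING finger protein, read 8.12, 8.01, 8.08 and 7.96 at baseline, 9.32, 9.66, 9.63 and 9.55 at the optimum, 11.31, 11.31, 11.33 and 11.40 at 20% inhibition, and 10.35, 10.43, 10.57 and 10.44 at 30% inhibition. The 4 states did not overlap in any array, and 30% inhibition lay between the optimum and 20% inhibition. AT2G27580, a zinc finger protein of the A20/AN1 type, averaged 7.55 ± 0.16, 9.12 ± 0.10, 10.85 ± 0.10 and 10.19 ± 0.06 (SD) over the states, and SK18, a SKP1-like subunit of ubiquitin ligases, 6.27 ± 0.39, 7.55 ± 0.09, 9.74 ± 0.15 and 9.13 ± 0.06 (SD). AT3G07090, a member of the PPPDE peptidase family, reached 13.21 ± 0.09 (SD) at 20% inhibition, 15.8-fold above baseline. ATG8D, a ubiquitin-like protein that coats autophagic membranes, had smaller differences, 1.01 and 1.28, as did the RING finger gene AT3G47160 with 1.00 and 1.06. AT2G41160, a UBA-domain protein, was 12.9-fold higher at 20% inhibition than at baseline.

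In the metabolic group AT5G25450, annotated as a subunit of the mitochondrial complex III of respiration, had the largest difference. Its arrays read 6.20, 5.84, 5.84 and 6.22 at baseline, 7.67, 7.82, 7.96 and 7.97 at the optimum, 13.14, 13.20, 12.73 and 13.07 at 20% inhibition, and 12.72, 12.73, 12.83 and 12.70 at 30% inhibition. Most of this lay in the second step: 26.2% of the log2 difference was reached at the optimum, the lowest share among the 40 named members. AT1G67360, a protein of the lipid droplet surface, was 40.1-fold higher at 20% inhibition than at baseline (13.47 ± 0.23 against 8.14 ± 0.08, SD). AT3G10020, known as a transcript that rises when oxygen is short, was 63.1-fold higher (13.40 ± 0.21 against 7.42 ± 0.10, SD). PDC2, a pyruvate decarboxylase of alcoholic fermentation, was 6.43-fold higher, and AT2G39920, of the acid phosphatase family, 5.90-fold.

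In the signalling group first steps ran from 1.01 to 1.82 and second steps from 1.03 to 4.64. AT1G21550, a calcium-binding EF-hand protein, read between 5.14 and 5.22 at baseline, between 6.55 and 7.45 at the optimum, between 11.35 and 11.67 at 20% inhibition and between 10.43 and 10.96 at 30% inhibition. AT3G59350, a protein kinase, read 5.40, 4.97, 5.10 and 5.28 at baseline and 7.26, 5.87, 5.96 and 6.78 at the optimum. At 20% inhibition it read 9.01 in replicate 3 and at most 7.36 in the other arrays, and at 30% inhibition 8.28, 8.33, 8.93 and 8.17. Optimum and 20% inhibition overlapped in this gene, and without replicate 3 of 20% inhibition the second step was 0.75, below the limit. AT1G47400, an IRON MAN peptide gene of the iron deficiency response, also overlapped between those states, with 7.93, 7.01, 6.56 and 7.67 at the optimum and 8.69, 9.28, 7.35 and 7.96 at 20% inhibition. These were the only 2 members with an overlap there, and AT1G47400 no longer met the rule without optimum replicate 2 or 3 or 20% inhibition replicate 1 or 2.

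AT1G66090, a protein of the TIR-NBS class related to disease resistance, lies next to AT1G66080 in the order of protein-coding genes on chromosome 1, the only such adjacent pair among the named members. It read between 4.49 and 5.11 at baseline, between 5.79 and 6.86 at the optimum, between 7.81 and 8.28 at 20% inhibition and between 6.38 and 7.17 at 30% inhibition, where it overlapped with the optimum again. The other signalling members, each with its first and second step, were the auxin-conjugating enzyme gene GH3.3 (1.17 and 1.14), AT1G51090 with a heavy-metal-associated domain (1.29 and 1.29), AT1G32090 of the ERD4 family (1.01 and 2.03) and the C2-domain gene AT3G57880 (1.30 and 2.31). In the translation group AT5G12110, a subunit of the elongation factor EF1B, was 34.1-fold higher at 20% inhibition than at baseline, and AT4G14270, with a motif that binds poly(A)-binding protein, 13.6-fold. The 7 named members without a stated role (AT5G10695, AT4G29520, AT4G30500, AT2G20940, AT2G25950, AT4G16146 and AT3G15770) had first steps between 1.02 and 2.26 and second steps between 1.03 and 4.71. AT5G10695 had the largest difference among them, 126-fold at 20% inhibition over baseline.

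**Figure D2:**
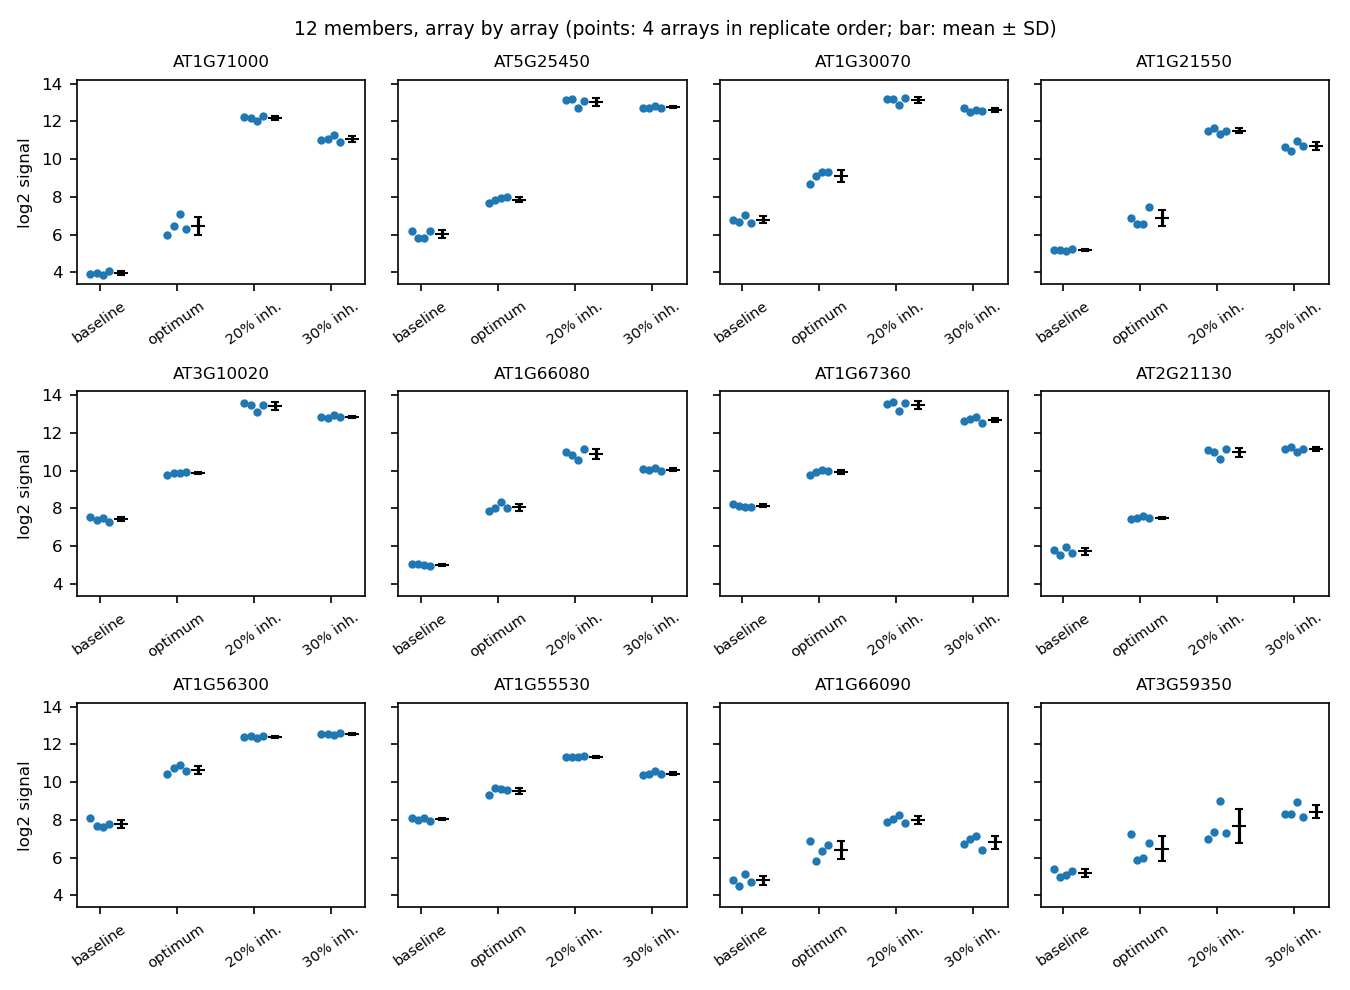
Array-by-array log2 signals of 12 named members in the 4 states; points are the 4 arrays of a state in replicate order and the bar beside them is their mean ± SD. AT1G71000 spans 3.96 at baseline to 12.18 at 20% inhibition, and the arrays of AT1G66090 at 30% inhibition partly overlap with those of the optimum. In AT3G59350 replicate 3 of 20% inhibition (9.01) stands above the other arrays of its state.

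The 40 members not assigned to 1 gene had a median first step of 1.74 and a median second step of 2.20, against 1.53 and 1.88 in the 40 named members. They held the largest differences of all: probe set 250351_at averaged 4.24 ± 0.19 at baseline, 6.01 ± 0.23 at the optimum, 13.88 ± 0.05 at 20% inhibition and 13.94 ± 0.08 at 30% inhibition (SD), a 796-fold value at 20% inhibition over baseline. Of all 80 members 23 averaged at least 13 at 20% inhibition, where the highest signal of any probe set was 14.7, and 11 averaged under 5 at baseline, so folds of such members are approximate.

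The arrays of 30% inhibition took no part in choosing the members, so the test asked where the members went at that state. Against 20% inhibition, 28 of the 80 members fell (35%), whereas 2.97% of all probe sets fell (limma, adjusted p under 0.05 over all 22746 probe sets). Another 3 members rose (3.75%), which is near the share of all probe sets that rose, 4.19%. The median log2 difference of 30% minus 20% inhibition was -0.21 over the members and -0.01 over all probe sets. In all 28 members that fell, the 4 arrays of 30% inhibition lay below the 4 arrays of 20% inhibition. Counting members that did not overlap whatever their test, 30 (37.5%) lay lower at 30% inhibition, against 4.94% of all probe sets. In the other direction 5 (6.25%) lay higher, near the 6.23% of all probe sets. The 20% inhibition arrays did take part in the choice, which favours members that read high there, and its part in these falls was not tested. The other 49 members did not pass in either direction, which does not show that they stayed level.

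Among the named members 14 fell and 0 rose. AT1G66090 read 6.70, 6.98, 7.17 and 6.38 at 30% inhibition against 7.88, 8.03, 8.28 and 7.81 at 20% inhibition, the largest fall among them (log2 change -1.19 ± 0.21 SE, adjusted p = 0.0016). AT1G71000 averaged 11.06 ± 0.17 at 30% and 12.18 ± 0.10 at 20% inhibition (SD; -1.11 ± 0.16 SE, adjusted p = 0.00035). The RING finger gene AT1G55530 fell by 0.89 ± 0.07 (SE, adjusted p = 1.6e-06), the Hikeshi-like AT1G66080 by 0.83 ± 0.11 and the EF-hand gene AT1G21550 by 0.82 ± 0.16. By role, 4 of 11 folding genes, 4 of 7 turnover genes, 2 of 8 signalling genes, 2 of 5 metabolic genes, 0 of 2 translation genes and 2 of 7 without a stated role fell; differences between these shares were not tested.

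The turnover genes that fell were AT1G55530, AT3G07090 (-0.70 ± 0.11), AT2G27580 (-0.66 ± 0.08) and SK18 (-0.60 ± 0.14), while ATG8D changed by 0.10 ± 0.14 (SE) and did not pass. Among folding genes AT1G30070 (-0.52 ± 0.13) and AT3G09440 (-0.37 ± 0.09) fell besides both named above. Their calls were near the threshold, at adjusted p = 0.022 and 0.020, and leaving out 1 array ended the call of AT1G30070 (replicate 1, 2 or 4 of 20% inhibition, or 2 or 4 of 30%; adjusted p 0.051 to 0.065) and of AT3G09440 (replicate 1 or 2 of 20%, or 4 of 30%; 0.053 to 0.064). Hsp70-2 (-0.21 ± 0.14), AT2G19310 (-0.19 ± 0.12), SGT1A (-0.24 ± 0.09), AT3G12050 (-0.27 ± 0.11) and BOB1 (-0.28 ± 0.11) did not pass. In metabolism AT1G67360 (-0.79 ± 0.10) and AT3G10020 (-0.55 ± 0.08) fell, and the complex III gene AT5G25450 (-0.29 ± 0.11, adjusted p = 0.13) and PDC2 (0.21 ± 0.09, adjusted p = 0.21) did not pass. Without replicate 3 of 20% inhibition BOB1 (-0.40), AT3G12050 (-0.36), AT5G25450 (-0.39) and AT4G14270 (-0.42) fell, and the kinase gene AT3G59350 rose by 1.21 (0.76 ± 0.37 SE, adjusted p = 0.25, with all arrays). AT4G14270 also passed without optimum replicate 1 or baseline replicate 3, at -0.37. AT5G10695 (-0.99 ± 0.23) and AT3G15770 (-0.56 ± 0.09) fell among the genes without a stated role.

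**Figure D3:**
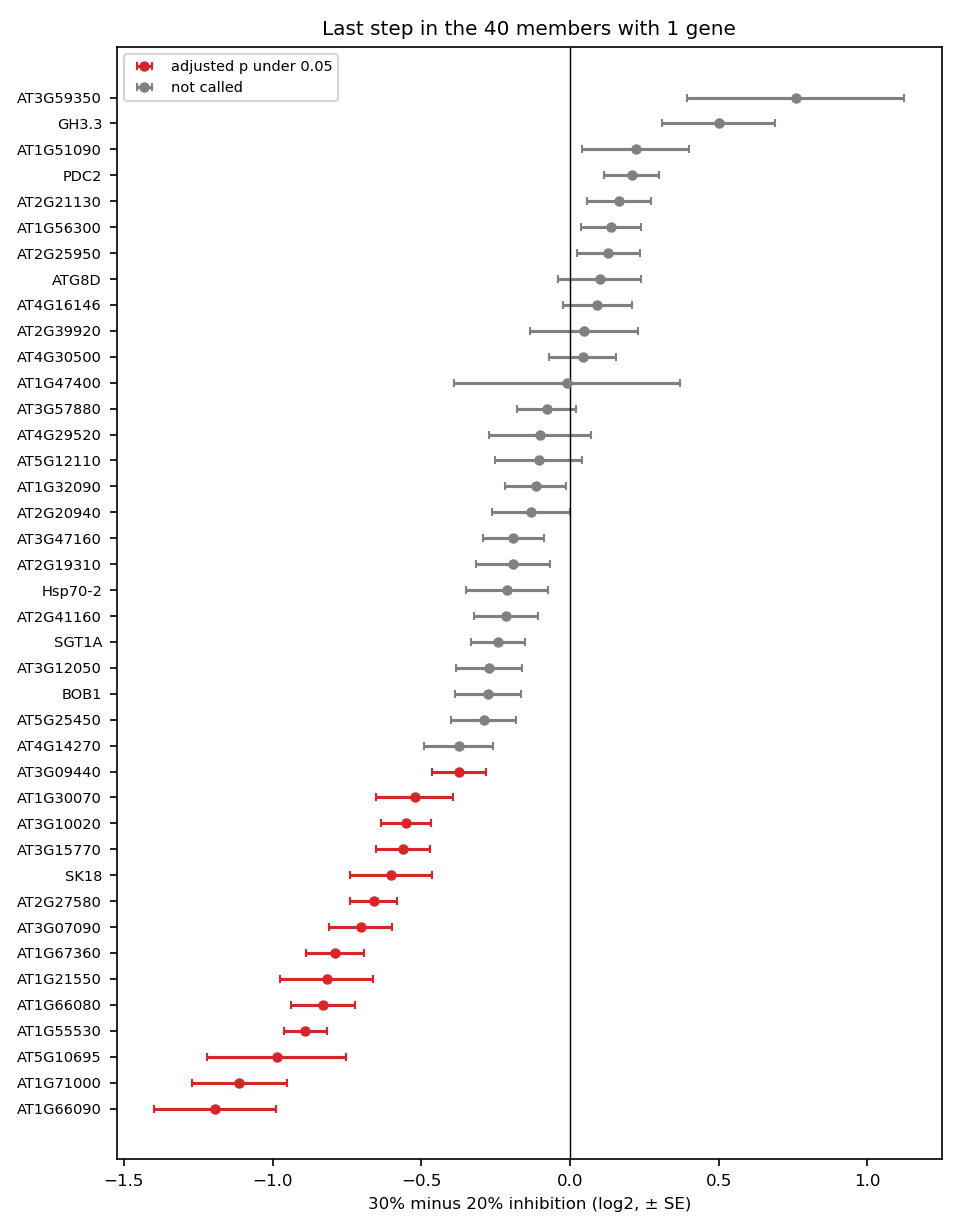
Log2 difference of 30% minus 20% inhibition (horizontal axis, ± SE from limma) for the 40 named members, ordered by size; red marks an adjusted p under 0.05. The 14 red members all lie below 0, between -1.19 for AT1G66090 and -0.37 for AT3G09440, and none of those above 0 passed.

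The 3 members that rose carry no gene name: 263548_at with 13.06 ± 0.12 at 30% and 12.50 ± 0.15 at 20% inhibition (SD; 0.56 ± 0.10 SE, adjusted p = 0.0016), 249850_at (0.59 ± 0.15) and 247937_at (0.45 ± 0.12). These 3 were singled out after their values were seen, as was 250781_at, which had the largest fall of all members, with 9.89, 10.16, 10.30 and 9.80 at 30% inhibition against 11.86, 11.84, 12.02 and 11.92 at 20% inhibition (-1.87 ± 0.10 SE, adjusted p = 1.6e-08). The number that rose was 1 without any one of replicates 1 and 2 of 20% inhibition and replicates 1 and 2 of 30% inhibition.

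Most members nevertheless remained high at 30% inhibition. Against the optimum, 77 of the 80 were higher (adjusted p under 0.05), as were 18.6% of all probe sets, and 69 were at least 2-fold higher, as were 2.49% of all probe sets. Of the 28 that fell after 20% inhibition, 25 were still called above the optimum. The optimum arrays entered both steps of the rule with opposite signs. Measured against the second step, the share still present at 30% inhibition (30% inhibition minus optimum, divided by 20% inhibition minus optimum) had a median of 91.1% over the members and 71.1% over those that fell. The latter were picked for their lower values at 30% inhibition, so their share had to fall short of the whole second step.

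The 3 members not called above the optimum were AT1G66090, with 6.81 ± 0.34 at 30% inhibition and 6.41 ± 0.46 at the optimum (SD; 0.40 ± 0.21 SE, adjusted p = 0.14), and the unnamed 254878_at (-0.12 ± 0.08, adjusted p = 0.26) and 245711_at (0.24 ± 0.10, adjusted p = 0.079). At the other end AT5G25450 stood 4.89 ± 0.11 and AT1G71000 4.61 ± 0.16 above the optimum (log2, SE). AT3G09440, whose second step was 1.04, kept 0.66 ± 0.09 (adjusted p = 1.8e-05), and AT3G15770 0.47 ± 0.09 (adjusted p = 0.00047).

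Single arrays stood apart in a way that runs through many members. Replicate 3 of 20% inhibition was the lowest of its state in 62 of the 80 members, and replicate 1 of the optimum in 63. How often these arrays were lowest over all probe sets was not counted. Their medians over all probe sets, 6.13 and 6.19, were the highest of their states. A control for 25S ribosomal RNA, which lacks a poly(A) tail, read 5.25 in replicate 3 of 20% inhibition and 12.99, 10.41 and 12.88 in replicates 1, 2 and 4; its part in the members' values was not tested beyond the covariate fit given here. It ran between 5.55 and 6.41 at baseline, between 5.52 and 6.31 at the optimum and between 8.67 and 11.4 at 30% inhibition. Without replicate 3 of 20% inhibition, 34 members fell and 4 rose at 30% inhibition, and the rule found 81 members, 78 of them the same. With the 25S signal as a covariate 28 fell and 3 rose. Correlations between arrays were 0.988 to 0.998 within states and 0.942 to 0.994 between them, and array medians over all probe sets 6.07 to 6.19.

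**Figure D4:**
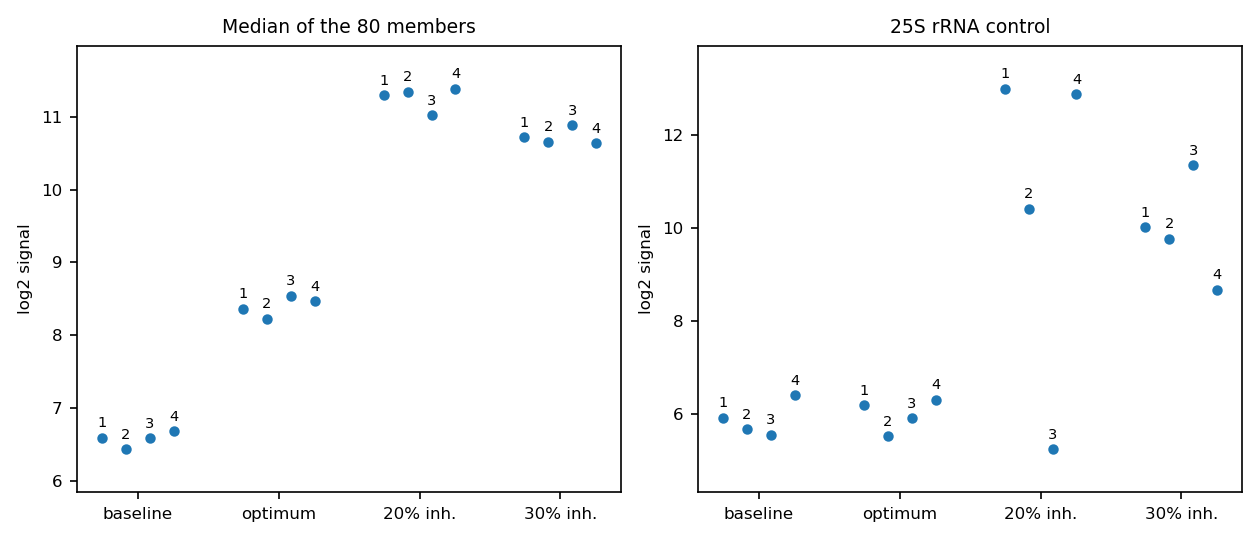
Left, the median log2 signal of the 80 members in each array; right, the log2 signal of the 25S rRNA control in the same arrays, with digits giving the replicate. Replicate 3 of 20% inhibition has the lowest member median of its state (11.03) and a 25S signal of 5.25, and all arrays of 30% inhibition (10.64 to 10.89) have lower member medians than those of 20% inhibition (11.03 to 11.39).

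The wider heat response gives the setting. Of 11 gene lists, 8 had a measured gene, that is, a gene with a probe set assigned to it alone. None of 21 heat shock factors, 12 SR splicing factors and 4 genes of galactinol and raffinose synthesis had such a probe set. Listed genes not counted as measured may lie among the 8730 probe sets without a gene or the 503 with several, and were not assessed. Of 19 small heat shock proteins 10 were measured, 1 of them a member and 4 among those set aside. The 4 set aside met both steps of the rule, so their early rises were fixed by it and are not counted here. At 30% against 20% inhibition AT5G37670 of these fell (-0.67 ± 0.13, SE), while AT2G29500, AT5G51440 and AT1G54050 did not pass. Of the other 5, 0 were called higher and 1 lower at the optimum than at baseline (background 8.14% and 8.43%), 3 higher at 20% inhibition than at the optimum (18.8%), and 0 higher and 1 lower at 30% than at 20% inhibition. Their medians were -0.08 for the first step, 7.51 for the second and 0.19 for 30% minus 20% inhibition, where all probe sets had -0.03, 0.03 and -0.01. Among those 3, AT1G53540 had a first step of 0.58 ± 0.23 (SE), ATHSP22.0 of -0.08 ± 0.11 and AT1G52560 of 0.02 ± 0.16, none called, and second steps of 8.91, 7.51 and 7.57. These averaged 13.94, 12.42 and 11.83 at 20% inhibition.

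Of 17 co-chaperones 10 were measured, SGT1A and AT3G12050 being members and 4 set aside. The 4 set aside (Hop3, Fes1A, AT5G48570 and AT2G20560) again met both steps of the rule. At 30% against 20% inhibition Fes1A (-0.58 ± 0.14, SE) and AT2G20560 (-0.69 ± 0.12) fell as well, while Hop3 and AT5G48570 did not pass. Of the other 4, 2 rose at the optimum against baseline (8.14% of all probe sets). The same 2, Hop2 and ATERDJ3B, rose at 20% inhibition against the optimum (18.8% of all probe sets). Of these other 4, 0 were called at 30% against 20% inhibition (limma). The medians of the other 4 for the same 3 differences were 0.43, 0.90 and 0.01. Hop2, which links HSP70 with HSP90, rose at both steps but by 0.74 at the first, whereas Hop1 passed at neither (0.23 ± 0.08 and 0.09 ± 0.08, SE). Among 23 HSP100, HSP90 and HSP70 chaperones only both member HSP70 genes had a named probe set, so the others were not assessed. Of 11 other regulators of the heat response 5 were measured, BOB1 being a member. The other 4 all rose at 20% inhibition against the optimum (18.8% of all probe sets). At the optimum 2 of them rose (8.14% of all probe sets). These were the membrane-bound transcription factor BZIP28, by 0.81 ± 0.06, and HSA32, a gene of acquired thermotolerance, by 0.33 ± 0.10. HSA32 then rose by 4.39 ± 0.10 (SE).

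All 5 measured genes of the endoplasmic reticulum folding list, of 19, rose at 20% inhibition against the optimum (18.8% of all probe sets). At the optimum 4 rose (8.14% of all probe sets), and the medians were 1.16 and 0.64. At 30% inhibition 1 fell (BZIP28, -0.22 ± 0.06). BZIP28 and BZIP60 were also counted among the other regulators above, and ATERDJ3B among the co-chaperones. Of 3 measured genes of abscisic acid and dehydration, of 19, 2 rose at both steps (COR47 and COR15B), and 0 were called at 30% against 20% inhibition. Of 2 measured genes of the reactive oxygen list, of 8, the zinc finger gene STZ differed by 1.07 ± 0.35 and 0.80 ± 0.35 (SE), of which only the first passed (adjusted p = 0.048 and 0.081), and AT5G43450 fell at the optimum against baseline (-0.35 ± 0.11), rose at 20% inhibition against the optimum (0.45 ± 0.11) and rose again at 30% against 20% inhibition (0.94 ± 0.11, SE). Of 17 clock genes 3 were measured: all rose at 20% inhibition against the optimum, GI also at the optimum, and COR27 and AT4G33980 rose again at 30% inhibition. The 3 measured mesophyll markers, of 10, all fell at 20% inhibition against the optimum (RCA by 0.15 ± 0.04, SBPASE by 0.55 ± 0.08 and PRK by 0.56 ± 0.08, SE). The share of all probe sets that fell at that step is not given here, and the members' rise there was fixed by the rule. SBPASE and PRK, enzymes of carbon fixation, also fell at the optimum against baseline (-0.29 ± 0.08 and -0.28 ± 0.08), and 0 of the 3 were called at 30% against 20% inhibition. Of 4 guard cell markers FMA alone was measured, and it fell by 0.24 ± 0.09 at 20% inhibition against the optimum and passed neither at the optimum against baseline (-0.18 ± 0.09) nor at 30% against 20% inhibition (0.25 ± 0.09, SE). Markers of phloem companion cells (3) and trichomes (3) had no named probe set, and the part of cell types in the members' values was not tested.

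The named members lie on all 5 nuclear chromosomes, 12 of them on chromosome 1 (30.0%, against 25.8% of all genes with a named probe set), 9 on chromosome 2 (22.5% against 16.4%), 8 on chromosome 3 (20% against 20.6%), 5 on chromosome 4 (12.5% against 14.6%) and 6 on chromosome 5 (15% against 22.6%).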

How the data were processed

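Per the labels' protocols, 6 µg of total RNA per sample went into biotin labelling for an Affymetrix array. The authors deposited log2 signals, 1 per probe set and array. RMA and limma stand in the submitters' processing notes, without versions in the sources used here. The 64 control probe sets were left out and no scaling, filter or pseudocount was added. Genes were named through the array annotation, of which 13513 probe sets had 1 gene, 503 several and 8730 none, and through RefSeq loci of assembly TAIR10.1.

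The 4 states were fitted together over the 16 arrays with limma 3.58.1 in R 4.3.3 (lmFit, eBayes), with 12 residual degrees of freedom and a prior of 4.21. Tests were 2-sided with Benjamini-Hochberg adjustment over 22746 probe sets per comparison, and "rose", "fell" and "called" mean an adjusted p under 0.05. The fit was also run on simulated data with independent noise and with group means equal apart from the changes set. Of 100 probe sets changed by 1 (log2) 97 were recovered, and of 100 changed by 0.5 85, with 11 false calls. Arrays that shift many members together, as in these data, were not simulated. The number of arrays limits the precision.

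The members and lists were chosen with earlier results of these data known. All members with 1 gene were to be named. The deviations of arrays of different states that share a replicate number had correlations between -0.36 and 0.31 over 24 pairs, without a test. All were above 0 between the optimum and 20% inhibition (0.09 to 0.31) and between baseline and 30% inhibition (0.0087 to 0.15). Both signs occurred between the other states. Alternatives were other eBayes priors, fewer arrays, other scalings, array weights, a filter on dim probe sets, a replicate block, the 25S rRNA covariate and leaving out each array. Promoter motifs were planned and not analysed here.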

Additional observations from a re-analysis of the deposited data

Results flagged for a closer look

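Within single states, 1 array lay far from the other 3 in 5 of the 168 groups of 4 arrays examined (40 named members, the member median and the 25S control in each of 4 states), by Dixon's gap ratio above 0.829. This is 2.98%, where chance flags about 1 group in 20. AT5G10695 read 5.51 in baseline replicate 2, against 6.17 to 6.23 in the other baseline arrays. AT3G10020 read 9.78 in optimum replicate 1, against 9.89 to 9.91. AT4G29520 read 10.44 in replicate 3 of 20% inhibition, against 10.93 to 11.00. At 30% inhibition AT3G12050 read 12.64 in replicate 3, against 12.38 to 12.43, and AT4G16146 read 9.37 in replicate 4, against 9.06 to 9.11.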

How the results depend on the processing

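The counts of members that fell (28) and rose (3) at 30% against 20% inhibition stood at 28 to 33 and 3 to 4 under all alternatives that kept every array of both states. Leaving out 1 array gave 25 to 34 and 1 to 4, and 75 to 78 members above the optimum, against 77 with all arrays. Over all probe sets, 1629 were called between the inhibited states, 915 with only the 8 arrays compared, and 1178 to 2153 without 1 array; against the optimum 9364 were called, and 8498 to 9868 without 1 array. The rule gave 80 members, 136 with both steps at least 0.8, 51 with both at least 1.2, 79 with arrays centred on their medians (75 shared), 76 after repeated quantile normalisation (74 shared) and 76 to 86 without 1 array. With the replicate number as a block, which the labels do not tie to a shared plant or day, 1440 probe sets were called between the inhibited states and 9173 against the optimum, and the members' counts were 28, 4 and 78; GH3.3 then passed (0.50). Only 5 of 24 same-numbered pairs correlated above 0.1.

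Of the 1040 values of single named members at 30% minus 20% inhibition, 12 changed sign, all of them not called: AT4G30500 (-0.0541) and AT2G39920 (-0.0417) with array weights, AT1G47400 (0.0401) with the 25S covariate, and, without 1 array, AT1G47400 (-0.33 to 0.31), AT4G30500 (-0.0511 to 0.17), AT2G39920 (-0.14 to 0.17) and AT3G57880 (-0.18 to 0.0188). The cause was not tested. Calls ended only for AT1G30070 (adjusted p up to 0.065) and AT3G09440 (up to 0.064), each without 1 array of the inhibited states. With all arrays kept, array weights brought AT5G25450 (-0.36), BOB1 (-0.35) and AT4G14270 (-0.41) past the threshold, and AT4G14270 also passed with the dimmest probe sets left out or only 8 arrays.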
